A study of Saccharomyces cerevisiae with 6 samples.

Results

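The mitochondrial ribosome of budding yeast was followed through 65 nuclear genes, taken as every gene on the arrays whose symbol is MRP, MRPL, MRPS or RSM followed by a number. They were 65 of 5561 named genes, each represented by 1 spot, and all 65 had a value on all 6 arrays. By ribosomal nomenclature 37 of them encode proteins of the large subunit and 26 proteins of the small subunit. The symbol rule also took in a pair of genes whose products are not structural ribosomal proteins. MRP8 was first described as a mitochondrial ribosomal protein and its function is not established. RSM22 encodes a methyltransferase-like protein that associates with the small subunit.

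The study compared RNA of Saccharomyces cerevisiae exposed to caffeine, a methylxanthine that inhibits TOR complex 1, with RNA of the same strain without caffeine. All cells were of the W303a background, carried a tor1 deletion and received a plasmid-borne, haemagglutinin-tagged TOR1. The plasmid allele was 3HA-TOR1 without substitutions (called WT here) or 3HA-TOR1 with I1954V and W2176R (called mutant here). Every strain, the untreated reference included, therefore lacked chromosomal TOR1 and depended on the plasmid copy. Each allele was examined at 3, 6 and 9 mM caffeine on 1 two-colour array per dose, with untreated RNA labelled with Cy3 and caffeine RNA labelled with Cy5.

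Mitochondrial ribosomes translate the few messages of mitochondrial DNA, most of which encode core subunits of the respiratory chain and ATP synthase. Apart from Var1, their proteins are encoded in the nucleus, made by cytosolic ribosomes and imported. Some are counterparts of bacterial ribosomal proteins, while others occur only in mitochondrial ribosomes. In Saccharomyces cerevisiae the messages of many of these proteins are bound by Puf3, an RNA-binding protein that promotes their decay in glucose.

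Values are log2 ratios taken as caffeine over untreated and centred on the median named gene of each array. No label states which dye was divided by which. Cy5 over Cy3 is the usual order and was taken as likely, and every sign would turn if the ratio ran the other way. No dye was swapped, and the values carry no level of expression. The deposited array medians ran from -0.54 (mutant 9 mM) to -0.22 (mutant 3 mM), so that centring raised every value by these amounts. Each gene was fitted over the 3 doses of an allele with a straight line through 0. Slopes are changes in log2 ratio per mM of caffeine, each ± its SE (n = 3 arrays for an allele). A gene is said to have risen or fallen where the slope had a Benjamini-Hochberg adjusted p below 0.05 over all 5212 genes tested. As the line passes through 0, an offset shared by all doses also gives a slope. A call therefore need not mean a change between doses. The p-values test each slope against 0, with the scatter of the arrays about the lines as the error. Labels do not say whether doses were separate cultures, so that scatter may be technical only.

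In WT cells with caffeine, 15 of the 65 genes fell and 50 were not called, with no gene called higher. The share that fell, 23.1%, lay above the 16.3% of all genes tested, while the 17.2% of all genes that rose had no counterpart among the 65. At an unadjusted p below 0.05 by limma, 22 of the 65 lay lower and 1 higher. At that cut 1117 of all 5212 genes tested lay lower and 1176 higher. The median of the 65 genes was -0.34 at 3 mM, -0.61 at 6 mM and -0.38 at 9 mM, where the median of all genes tested was 0.00, and so did not move steadily with dose. On all 3 WT arrays 31 of the 65 genes lay below 0 (47.7%, against 29.1% of all genes). MRPL51 and RSM18 alone lay above 0 on all 3 (3.08%, against 29% of all genes). The count of genes that fell was 34 on the values as deposited, where 28.5% of all genes fell. It was 9 without the WT 6 mM array (12% of all genes), 8 with arrays scaled to equal spread (9.88%) and 1 when an intercept shared by all arrays was fitted (1.25%), so that calls were lost among all genes too.

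**Figure D1:**
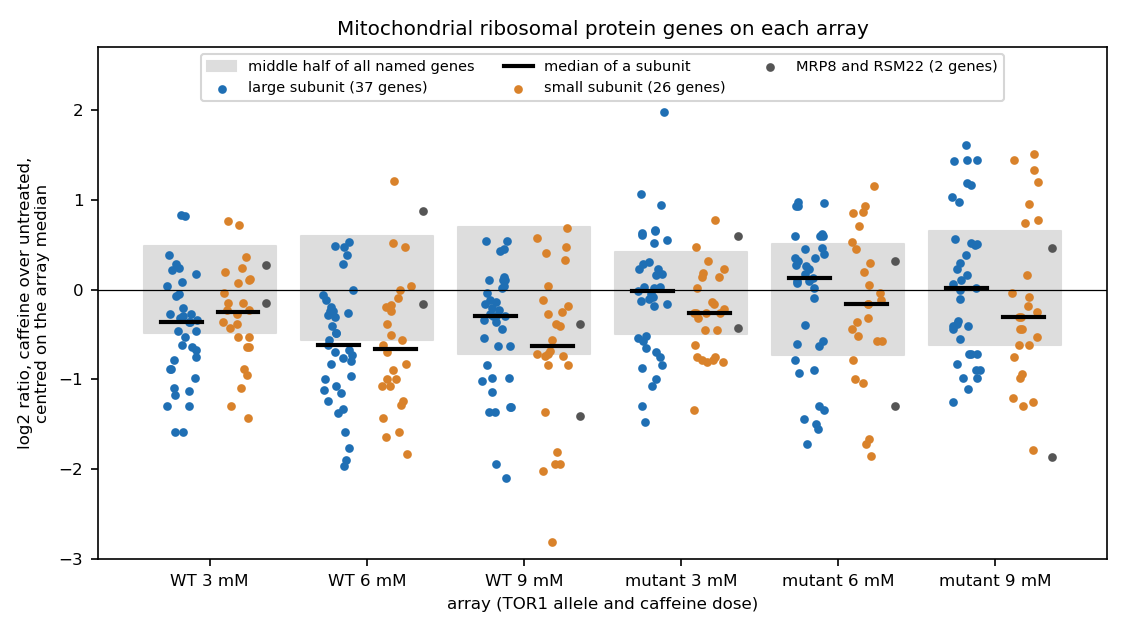
Centred log2 ratio (vertical axis) of each gene on each of the 6 arrays (horizontal axis). Points are genes coloured by subunit, black bars are the median of a subunit, and grey bands run from the lower to the upper quartile of all named genes. On the WT arrays the medians of both subunits lie between -0.25 and -0.66, and on the mutant arrays between -0.30 and 0.13.

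Single arrays have no test, so values were also counted by size alone. At 3 mM, 10 of the 65 WT values were at least 2-fold below the array median (15.4%, against 8.73% of all genes). The count was 21 at 6 mM (32.3%, against 13.4%) and 15 at 9 mM (23.1%, against 18.3%). At least 2-fold higher in WT there was 1 value, that of RSM18 at 6 mM, where 9.57% of all genes were at 3 mM, 14.2% at 6 mM and 17.3% at 9 mM. Across the 65 genes, 25 had their lowest WT value at 6 mM (38.5%, against 28.0% of all genes). The lowest value lay at 9 mM in 22 (33.8%, against 38.1%) and at 3 mM in 18 (27.7%, against 33.9%).

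The small subunit supplied the 4 steepest falls in WT. MRPS16 (YPL013C), the counterpart of bacterial S16, stood at -0.53, -1.0 and -2.81 at the rising doses. It was low on every WT array and lowest at the highest dose, with a slope of -0.26 ± 0.04 (limma adjusted p = 0.000724). Without the WT 9 mM array its slope was -0.17 and was not called (adjusted p = 0.0994). MRP4 (YHL004W), the counterpart of bacterial S2, stood at -1.09, -1.64 and -1.81, already more than 2-fold down at 3 mM. Its slope was -0.23 ± 0.04 (limma adjusted p = 0.000673), and it was called whichever array was left out. MRPS5 (YBR251W), the counterpart of bacterial S5, stood at -0.88, -1.43 and -1.94, falling at each step, with a slope of -0.23 ± 0.04 (limma adjusted p = 0.00117). MRP13 (YGR084C), a protein of the mitochondrial small subunit without a bacterial counterpart, stood at -0.27, -1.58 and -2.02. Its slope was -0.23 ± 0.04 (limma adjusted p = 0.00079), and it was the one gene of the 15 still called with the shared intercept. MRPS5, MRP13 and, in the large subunit, MRPL20 were like MRP4 called whichever array was left out.

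The other small-subunit genes that fell in WT were RSM26, RSM24, MRPS35 and MRP21, making 8 of 26 (30.8%, against 16.3% of all genes). RSM26 encodes a relative of manganese superoxide dismutase and reached -1.94 at 9 mM after -0.39 and -0.89. RSM24 and MRPS35, both proteins of mitochondrial ribosomes only, had different shapes. RSM24 went from 0.10 at 3 mM to -1.36 at 9 mM, whereas MRPS35 was lowest at 3 mM (-1.43) and stood at -0.74 at 9 mM. MRP21, the counterpart of bacterial S21, stayed between -0.64 and -1.0. The median of the 26 genes was -0.25, -0.66 and -0.62 at the rising doses.

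In the large subunit 7 of 37 genes fell in WT (18.9%, against 16.3% of all genes), and the median was -0.36, -0.61 and -0.29. MRPL44 (YMR225C), a protein of mitochondrial ribosomes only, stood at -0.75, -0.83 and -2.10, with a slope of -0.21 ± 0.05 (limma adjusted p = 0.00692). MRPL24 (YMR193W), the counterpart of bacterial L28, stood at -1.17, -0.79 and -1.94, with a slope of -0.20 ± 0.05 (limma adjusted p = 0.00739). In both the 9 mM value was the lowest, and neither was called without the WT 9 mM array (adjusted p = 0.206 and 0.151). MRPL20, a protein of mitochondrial ribosomes only, was lowest at 6 mM (-0.21, -1.96 and -1.36). MRPL32, whose precursor is cut by the m-AAA protease before assembly, stayed between -1.0 and -1.31. MRPL9 and MRPL19, counterparts of bacterial L3 and L11, reached -1.14 and -1.02 at 9 mM, and MRPL13 reached -0.98. Among genes that were not called, some were far lower at 6 mM than at 9 mM. MRPL7 stood at -0.53, -1.89 and -0.29, MRPL31 at -0.79, -1.76 and -0.16, and MRP1 of the small subunit at 0.72, -1.83 and 0.47.

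Of 41 counterparts of bacterial proteins 8 fell in WT (19.5%, against 16.3% of all genes). Of 22 proteins found only in mitochondrial ribosomes 7 fell (31.8%). The difference between these shares was not tested, and the median slopes were -0.07 and -0.08 per mM. MRP8 stood at -0.15, 0.87 and -0.38 (slope 0.01 ± 0.04, limma adjusted p = 0.876) and RSM22 at 0.27, -0.16 and -1.41 (slope -0.10 ± 0.04, limma adjusted p = 0.0787). RSM18, the counterpart of bacterial S18, had the highest WT slope of the 65. It stood at 0.76, 1.21 and 0.58, above the array median throughout, and missed the threshold with a slope of 0.12 ± 0.04 (limma adjusted p = 0.0531). It was called higher without the WT 9 mM array or without the mutant 9 mM array.

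**Figure D2:**
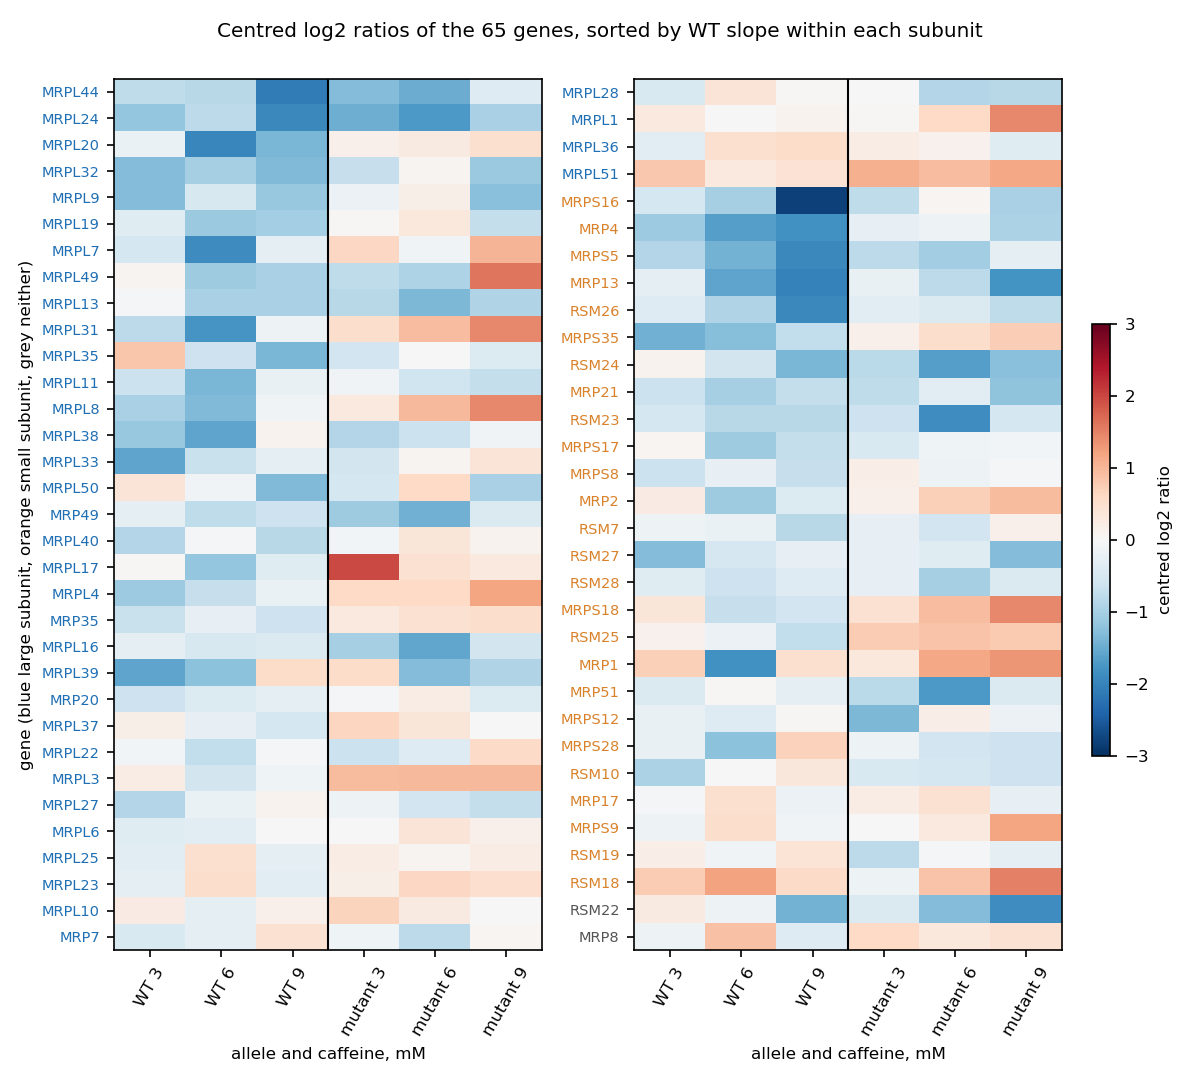
Centred log2 ratios of all 65 genes (rows) on the 6 arrays (columns, allele and mM caffeine), with blue below and red above the array median. Genes are sorted by WT slope within the large subunit (blue names), the small subunit (orange names) and MRP8 and RSM22 (grey names), and the black line parts WT from mutant arrays. Blue prevails in the WT columns, where 15 genes fell, and the mutant columns mix both colours, with 8 genes that fell and 9 that rose.

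In mutant cells with caffeine, 9 of the 65 genes rose and 8 fell, leaving 48 without a call. These shares, 13.8% and 12.3%, were near those of all genes tested, of which 12.1% rose and 15.8% fell. The median of the 65 genes was -0.14, 0.06 and -0.18 at 3, 6 and 9 mM. On all 3 mutant arrays 19 genes lay above 0 (29.2%, against 31.4% of all genes) and 23 below (35.4%, against 31.9%). On the values as deposited none rose and 23 fell (against 3.86% and 33.3% of all genes), and with arrays scaled to equal spread 1 rose and 3 fell (against 4.93% and 8.19%). When an intercept shared by all arrays was fitted, none rose and none fell (against 0.269% and 0.153%). Without the mutant 3 mM array 5 rose and 5 fell (against 7.9% and 11.2% of all genes), and without the mutant 6 mM array none rose and 2 fell (against 4.87% and 6.33%). Without the mutant 9 mM array none rose and 8 fell (against 2.99% and 12.5%). Those 8 were not the set reported, since MRP13, MRP21 and RSM22 were no longer called and MRP49, MRP51 and MRPL44 were.

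At 9 mM, 11 of the 65 mutant values were at least 2-fold higher (16.9%, against 14.4% of all genes) and 7 at least 2-fold lower (10.8%, against 14%). At 3 mM the counts were 2 higher and 5 lower (against 4.3% and 8.54% of all genes). At 6 mM they were 1 higher and 12 lower (against 7.35% and 17.8%). The 1 gene at least 2-fold higher at 6 mM was MRP1, which encodes another relative of manganese superoxide dismutase. MRP1 stood at 0.32, 1.15 and 1.33 in the mutant, and its slope of 0.16 was not called (limma adjusted p = 0.0634).

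Of the 9 genes that rose in the mutant, 6 belong to the large subunit and 3 to the small subunit. MRPL31 (YKL138C), a protein of mitochondrial ribosomes only, stood at 0.52, 0.93 and 1.45 and climbed at each step. Its mutant slope was 0.16 ± 0.05 (limma adjusted p = 0.0315). MRPS18 (YNL306W), the counterpart of bacterial S11, stood at 0.47, 0.93 and 1.44, with a slope of 0.16 ± 0.04 (limma adjusted p = 0.0114). MRPL8 (YJL063C), the counterpart of bacterial L17, had nearly the same course with 0.29, 0.96 and 1.44 (slope 0.16 ± 0.05, limma adjusted p = 0.0282). MRPL51 and MRPL3, both without a bacterial counterpart, were instead flat across doses. Their calls came from a nearly constant offset and show no trend with dose. MRPL51 (YPR100W) stood at 1.07, 0.93 and 1.17 (slope 0.15 ± 0.04, limma adjusted p = 0.0183). MRPL3 (YMR024W), which has the fold of a ribonuclease III, stood at 0.94, 0.97 and 0.98 (slope 0.14 ± 0.04, limma adjusted p = 0.0241). RSM18 (YER050C) went from -0.16 through 0.86 to 1.51, with a slope of 0.14 ± 0.05 (limma adjusted p = 0.0265). The remaining genes that rose were MRPL1, MRPL4 and RSM25, with 1.43, 1.19 and 0.77 at 9 mM. None of the 9 was called in WT. Among all genes tested, 633 rose in the mutant, of which 361 also rose and 4 fell in WT. Each of the 6 genes given with a slope lost its call without the mutant 6 mM array (adjusted p from 0.0528 to 0.111) and without the mutant 9 mM array (from 0.0654 to 0.34). MRPL31 and MRPL3 also lost it without the mutant 3 mM array (adjusted p = 0.0583 and 0.0568).

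Of the 8 genes that fell in the mutant, 4 belong to the small subunit, 3 to the large subunit, and the eighth was RSM22. RSM22 (YKL155C) stood at -0.43, -1.29 and -1.86 and fell at each step, with a slope of -0.20 ± 0.04 (limma adjusted p = 0.00476). RSM24 (YDR175C) stood at -0.81, -1.66 and -1.25, lowest at 6 mM, with a slope of -0.19 ± 0.04 (limma adjusted p = 0.00753). MRPL24 had a similar course, at -1.47, -1.72 and -0.98 (slope -0.19 ± 0.05, limma adjusted p = 0.017). MRP13, which also fell in WT, went from -0.22 through -0.79 to -1.79 (slope -0.17 ± 0.04, limma adjusted p = 0.00836). MRPL13 (YKR006C) stood at -0.84, -1.34 and -0.90 (slope -0.15 ± 0.04, limma adjusted p = 0.0192). RSM23 (YGL129C), the yeast counterpart of the mammalian death-associated protein DAP3, was marked by a low value at 6 mM (-0.62, -1.86 and -0.52). Its slope was -0.14 ± 0.05 (limma adjusted p = 0.0427). MRPL16 and MRP21 also fell, to -0.55 and -1.20 at 9 mM. Calls were lost without the mutant 9 mM array for RSM22 (adjusted p = 0.0717) and MRP13 (0.218), and without the mutant 6 mM array for RSM24 (0.0641), MRPL24 (0.103), MRPL13 (0.137) and RSM23 (0.345). RSM23 also lost its call without the WT 3 mM (0.0511), WT 6 mM (0.059) or mutant 3 mM (0.0822) array.

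MRP13, MRP21, MRPL13, MRPL24 and RSM24 fell in both alleles (5 of 65, against 387 of all 5212 genes tested). None of the 65 was called in opposite directions. Among all genes tested 5 rose in WT and fell in the mutant, and 4 did the reverse. Across the 65 genes, which are not independent replicates and share the dyes on all arrays, WT and mutant slopes correlated with Pearson's r = 0.402, and across all genes tested with 0.617. At matched doses r across the 65 genes was 0.199 at 3 mM, 0.126 at 6 mM and 0.421 at 9 mM.

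**Figure D3:**
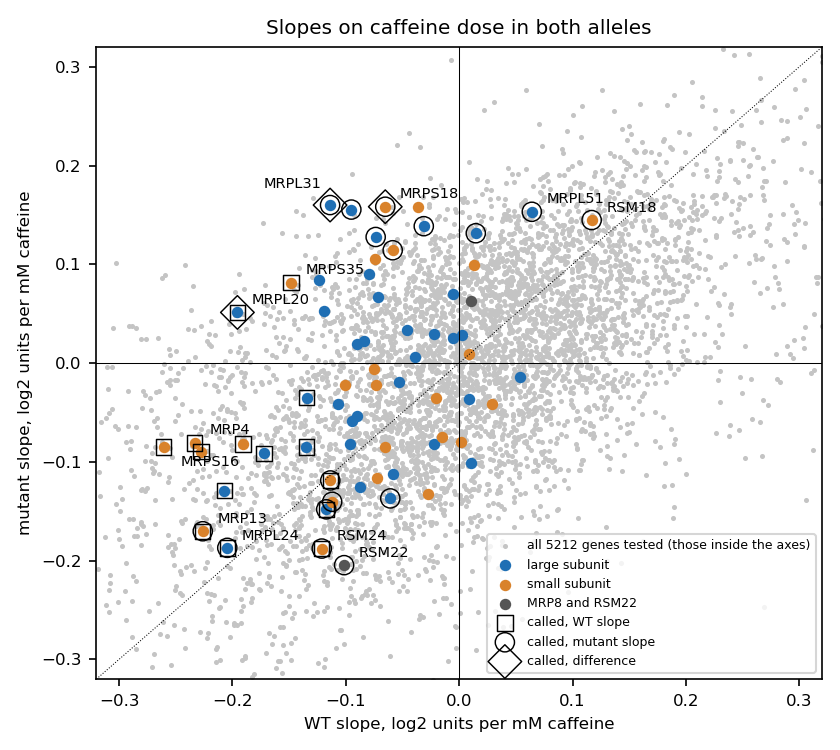
Slope on caffeine dose in WT (horizontal axis) and in the mutant (vertical axis), both in log2 units per mM, for the 65 genes by subunit and for all 5212 genes tested that fall inside the axes (grey). Open squares, circles and diamonds mark genes called for the WT slope (15), the mutant slope (17) and the difference (3), and the dotted line marks equal slopes. The genes called for the difference lie above that line, on the upper left.

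Between the alleles, the slopes of 3 of the 65 genes differed, all higher in the mutant, where 1.94% of all genes tested were higher and 2.32% lower. These were MRPL20, MRPL31 and MRPS18. At an unadjusted p below 0.05 by limma, 16 of the 65 were higher in the mutant and none lower. At that cut 536 of all 5212 genes tested were higher and 570 lower. The median of the 65 genes for mutant minus WT was 0.27 at 3 mM, 0.57 at 6 mM and 0.60 at 9 mM, where that of all genes tested was -0.05, -0.16 and 0.04. The mutant value lay above the WT value at all 3 doses in 24 of 65 genes (36.9%, against 24.5% of all genes) and below it at all 3 in 3 (4.62%, against 26.3%).

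MRPL20 (YKR085C) stood at -0.21, -1.96 and -1.36 in WT and at 0.16, 0.26 and 0.49 in the mutant. The WT values were all below and the mutant values all above the array median. The slopes differed by 0.25 ± 0.06 per mM (limma adjusted p = 0.0408). MRPL31 likewise lay below 0 on each WT array (-0.79, -1.76 and -0.16) and above it on each mutant array (0.52, 0.93 and 1.45). Its slopes differed by 0.27 ± 0.07 (limma adjusted p = 0.0473). MRPS18 stood at 0.36, -0.70 and -0.57 in WT against 0.47, 0.93 and 1.44 in the mutant, so that the alleles were close at 3 mM and apart at 6 and 9 mM. Its slopes differed by 0.22 ± 0.06 (limma adjusted p = 0.0419). These adjusted p-values lay close to the threshold, and no difference was called on the values as deposited, with scaled arrays, or without the WT 6 mM, mutant 3 mM, mutant 6 mM or mutant 9 mM array. Without the WT 3 mM array 1 was called, MRPS18 (0.959% of all genes were higher). Without the WT 9 mM array 6 were called (2.61%), among them MRPL20 and MRPL31 but not MRPS18.

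In 14 of the 65 genes every mutant array lay above every WT array (21.5%, against 13.7% of all genes), and in MRPL16 and MRP51 every mutant array lay below every WT array (3.08%, against 14.6%). MRPL8 and MRPS35 were the nearest to the threshold among genes without a called difference (slope differences of 0.25 ± 0.07 and 0.23 ± 0.07, limma adjusted p = 0.0525 and 0.0658). MRPS35 was low in WT (-1.43, -1.29 and -0.74) and above the median in the mutant (0.14, 0.53 and 0.74). MRPL8 was at -0.98, -1.33 and -0.12 in WT, against its rise to 1.44 in the mutant. When the mean over the 3 doses was compared with dose as a block in place of slopes, 8 of the 65 were called higher in the mutant, where 5.18% of all genes were called higher and 6.1% lower. These were MRPL3, MRPL4, MRPL7, MRPL8, MRPL17, MRPL20, MRPL31 and MRPS35.

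**Figure D4:**
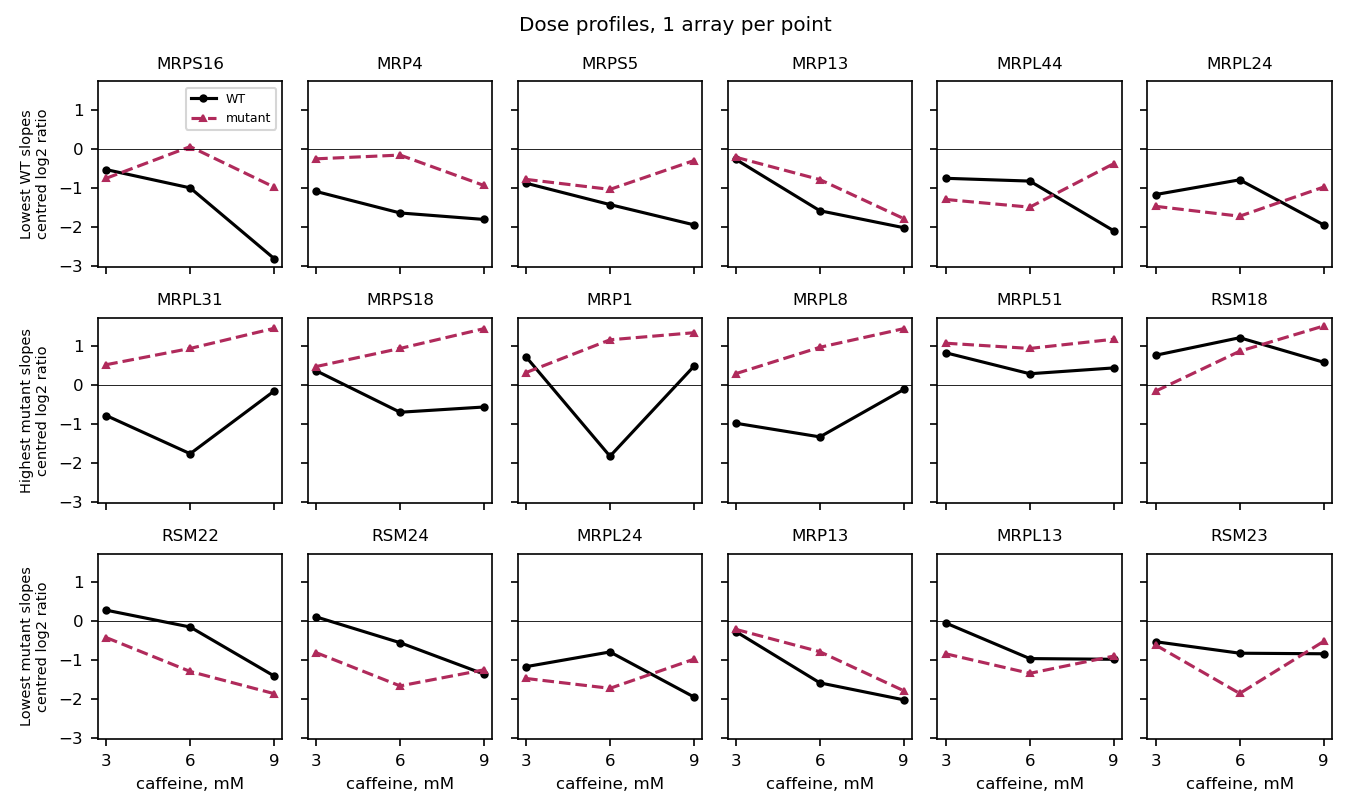
Centred log2 ratio (vertical axes) against caffeine dose in mM (horizontal axes) for the 6 lowest WT slopes, the 6 highest mutant slopes and the 6 lowest mutant slopes. Black circles are WT and red triangles the mutant, with 1 array per point. MRP1 is shown for its high mutant slope, although it was not called, and MRPL31 and MRPL8 lie apart in the alleles at every dose.

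Other genes of mitochondrial translation were taken from lists, to be read against the 17.2% of all genes that rose and 16.3% that fell in WT and the 12.1% and 15.8% in the mutant. Of 13 further mitochondrial ribosomal proteins whose symbols the rule does not take in, 11 were tested. In WT NAM9 and FYV4, small-subunit proteins, fell to -1.27 and -0.98 at 9 mM, and EHD3 rose to 1.73. EHD3 encodes a hydroxyisobutyryl-CoA hydrolase that is also found on the small subunit, and it rose in the mutant too, to 1.05. The median slope of the 11 was -0.06 per mM in WT and 0.02 in the mutant. Of 10 tested initiation, elongation and release factors of mitochondria none was called in WT, and MEF2, an elongation factor G homologue that acts in ribosome recycling, fell in the mutant to -0.75. At an unadjusted p below 0.05 by limma, 1 of these factors was lower in WT.

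Among 12 assembly, ribosomal RNA modification and related factors, 4 fell and 1 rose in WT and 4 fell and 2 rose in the mutant. MRM1, a methyltransferase of the large mitochondrial ribosomal RNA, stood at -0.04, -0.56 and -1.87 in WT and at -1.38, -2.0 and -2.52 in the mutant. Its slopes were -0.16 ± 0.04 and -0.31 ± 0.04 (limma adjusted p = 0.0101 and 0.000626). MAM33, an acidic matrix protein, fell in both alleles, to -2.27 in WT. MTG2, a GTPase of large-subunit assembly, fell in the mutant, to -2.11, and was not called in WT, while the difference between the alleles was not called either (limma adjusted p = 0.313). Of 11 tested mitochondrial aminoacyl-tRNA synthetases 2 rose and 1 fell in WT, and 1 fell in the mutant. ISM1, the mitochondrial isoleucyl-tRNA synthetase, was the one that fell in both.

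Of 17 tested translational activators and insertion factors, 2 rose and 1 fell in WT and 1 fell in the mutant. ATP22, needed for translation of the Atp6 message, reached 2.34 in WT at 9 mM. Of 4 genes of mitochondrial transcription and RNA processing, MSS116, an RNA helicase of intron splicing, fell in both alleles and the other 3 were not called. Of 8 regulators, HAP4, the activating subunit of the Hap complex that turns on respiratory genes, fell in both alleles. HAP4 stood at -0.53, -2.20 and -2.94 in WT and at -0.97, -1.34 and -1.65 in the mutant, with slopes of -0.33 ± 0.04 and -0.20 ± 0.04 (limma adjusted p = 5.87e-05 and 0.0032). The Hap subunit genes HAP5 (higher in WT) and HAP2 (lower in the mutant) were the other calls. PUF3 itself stayed between -0.36 and 0.14 in WT and between 0.25 and 0.37 in the mutant (limma adjusted p = 0.635 and 0.392).

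Cytosolic ribosomal protein genes, taken by symbol, fell in 115 of 130 tested cases in WT (88.5%, against 16.3% of all genes). In the mutant 50 fell (38.5%, against 15.8% of all genes). Medians of the cytosolic genes at 9 mM were -1.84 in WT and -0.75 in the mutant, beside -0.38 and -0.18 for the 65 mitochondrial genes. Many cytosolic genes have a near-identical duplicate, so that a spot may report both copies.

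By the order of genes in RefSeq assembly R64 and the strand letter of their systematic names, 38 of the 65 genes have an upstream neighbour on the opposite strand. Both genes were tested in 31 of these pairs. Across those pairs the WT slopes of the gene and its neighbour had r = 0.01 and the mutant slopes r = -0.24, given as a description only. MRPS17 did not pass the test in WT (slope -0.10), while its divergent neighbour GCV2, a subunit of glycine decarboxylase, rose at 0.40 per mM. MRPL6 had a WT slope of -0.02, while its neighbour IMP3, a protein of the small-subunit processome, fell at -0.32. MRPS16 and its neighbour RRP12, a ribosome export factor, both fell in WT, at -0.26 and -0.29 per mM.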

How the data were processed

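RNA of caffeine-treated and untreated yeast was compared on 6 two-colour arrays, 1 per allele and dose. The deposited values are log2 ratios, found from the values, since 2 to the power of each value is a ratio with 2 decimals (100% of values, tolerance 0.0001). Background correction and dye normalization by the authors are not given in the sources used here, and scanner signals were not analysed here. Of 6214 probes, 5596 had a symbol in the platform annotation, naming 5561 genes, and spots of 1 gene (34 genes with at least 2) were averaged. Each array was centred on its median named gene. In limma 3.58.1 (R 4.3.3) the 5212 genes with a value on all arrays were fitted over all 6 arrays with a slope on dose per allele and no intercept. The fit had 4 residual degrees of freedom and 9.69 prior ones, and SEs pool both alleles. P-values were adjusted by Benjamini-Hochberg over all genes tested. The slopes were tested on simulated data. The 65 genes and the 7 gene lists were chosen with earlier results of these data known. Genes given with full statistics were the 6 steepest called slopes per allele and direction and the called differences, with MRP8, RSM22, PUF3, HAP4 and up to 4 genes per list by WT slope. Further list genes and the gene pairs were chosen after their values were seen. RefSeq R64 was used for names and gene order. Sequences and promoter motifs were not analysed here. Alternatives were the values as deposited, arrays scaled to equal median absolute value, a shared intercept, robust moderation, genes with missing values, the mean over doses with dose as a block for the difference, and each array left out. The number of arrays limits the precision.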

Additional observations from a re-analysis of the deposited data

Results flagged for a closer look

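The slope on caffeine dose differed between the alleles, or the log2 ratios had opposite signs on every array of each allele, in 7 of the 65 genes. Of all genes tested, 1.94% had a slope called higher in the mutant and 2.32% lower. The share of all genes with such opposite signs is not given here, so that count has no background to be read against. All 7 values are mutant minus WT slopes in log2 units per mM from limma, with p adjusted over all genes tested. MRPL20 (0.25, adjusted p = 0.0408), MRPL31 (0.27, adjusted p = 0.0473) and MRPS18 (0.22, adjusted p = 0.0419) passed the test of the difference. MRPL20 and MRPL31 lay below the array median on every WT array and above it on every mutant array. The same held for 4 genes whose difference did not pass the test. These were MRPL8 (0.25, adjusted p = 0.0525), MRPS35 (0.23, adjusted p = 0.0658), MRPL4 (0.20, adjusted p = 0.0862) and MRP35 (0.14, adjusted p = 0.158).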

How the results depend on the processing

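The number of the 65 genes called depended on the processing, as did the share of all genes called, given in brackets. On the values as deposited 34 fell in WT (28.5%), none rose (3.86%) and 23 fell (33.3%) in the mutant, and no slope was called higher in the mutant than in WT (0.921%). With arrays scaled to equal spread 8 fell in WT (9.88%), 1 rose (4.93%) and 3 fell (8.19%) in the mutant, and 0 differed (0%). With a shared intercept 1 fell in WT (1.25%), 0 rose (0.269%) and 0 fell (0.153%) in the mutant, and 5 were higher in the mutant (2.26%). For the mean over doses, with arrays of the same dose paired as a block, 8 were higher in the mutant (5.18%). Leaving out 1 array at a time gave 9 (without WT 6 mM) to 17 falls and 0 to 1 rise (RSM18, without WT 9 mM or mutant 9 mM) in WT. It gave 0 (without mutant 6 mM or mutant 9 mM) to 10 rises and 2 (without mutant 6 mM) to 8 falls in the mutant, and 0 to 6 (without WT 9 mM) differences. None of the 65 genes was called lower in the mutant than in WT under the alternatives run. Of the 21 calls given with full statistics none changed sign, and all 21 held with robust moderation and with missing values allowed, 12 as deposited, 10 scaled, 4 with the shared intercept and 18 for the mean over doses. Without 1 array, 8 (mutant 6 mM) to 18 (WT 3 mM) held. The cause was not tested. Signal over background was not analysed here.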
